A study of Homo sapiens with 8 samples.

Results

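Gene expression was described in 4 vehicle cultures of EPC2-hTERT. This human line of esophageal keratinocytes owes its immortality to added telomerase and was grown here into a layered epithelium at an air-liquid interface. These 4 libraries were chosen by the treatment named in their labels, and they are 4 of the 8 in the series; the other 4 came from cultures given dimethyloxalylglycine and were not analysed here. The genotype given for all of them is WT. Every vehicle culture received DMSO for 18 h before harvest, so the baseline is that of solvent-treated cells; the amount of DMSO was not stated. The cells sat on porous membranes (pore size 0.4 µm), reached confluence in 2 days, spent 5 days with 1.8 mM CaCl2 and faced air for 4 days. Their keratinocyte medium contained bovine pituitary extract (50 µg/ml) and epidermal growth factor (1 ng/ml). A single cell line stands behind all 4 libraries, and whether each came from a separate culture is not stated, so every SD below measures the spread between these libraries, which may be technical.

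A gene was kept where its level was 1 RPKM or more in all 4 vehicle libraries, RPKM being a read count divided by listed gene length in kilobases and by library size. This held for 10475 of the 25369 listed genes, or 41.3%. A further 1207 genes reached 1 RPKM in 1 to 3 of the libraries, and 13687 reached it in none, 6896 of which were at 0 in all 4. FBXO41 lay just inside the limit, with 1.001 RPKM in its lowest library, and DTWD2 lay just outside, with 0.9999 RPKM. Kept genes had a median level of 10.1 RPKM. A mean of 10 RPKM or more was found for 5275 of them, 100 RPKM or more for 567 and 1000 RPKM or more for 53.

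The lining of the esophagus is a squamous epithelium of many layers. Dividing basal cells hold to the basement membrane, carry the keratin pair KRT5 and KRT14 and depend on the transcription factor TP63. Cells that leave this layer turn to KRT4 and KRT13 and build an envelope of cross-linked proteins, among them involucrin and the small proline-rich proteins, under the cell membrane. KRT6A, KRT16 and KRT17 are known from healing wounds and from keratinocytes in culture, and KRT1 and KRT10 from the upper layers of skin.

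The 4 libraries held 32707991, 34784359, 39931833 and 34068135 reads in genes, in the order vehicle 1, 2, 3 and 4, which is the order of every set of 4 values below. A read was worth 0.0250 to 0.0306 RPM. For a gene at 0, counting error alone leaves room for an expected count of up to 3 reads, or 0.0751 to 0.0917 RPM. Vehicle 2 stood apart. Across kept genes its correlation with the others (Pearson's r of log2(RPKM + 1), a description across genes that share these libraries) was 0.973 to 0.981, against 0.983 to 0.991 among vehicles 1, 3 and 4. It was the library farthest from the median of the 4 in 44.9% of kept genes, and the lowest in 49.2% of them; vehicle 1 was lowest in 11.8%, vehicle 3 in 23.9% and vehicle 4 in 15.2%. The highest value lay in vehicle 1 for 21% of kept genes, in vehicle 2 for 19.3%, in vehicle 3 for 22.4% and in vehicle 4 for 37.3%. These shares are the background for counts of list members below. Median-ratio scaling factors were 1.04, 0.931, 0.988 and 1.05, which is -0.10 on the log2 scale for vehicle 2; after division by them vehicles 1, 2, 3 and 4 were lowest in 20.2, 32.3, 22.7 and 24.7% of kept genes and highest in 14.6, 34.5, 26.9 and 24%, which is the background for counts after scaling. The vehicle mean in the authors' deposited table was made from vehicles 1, 3 and 4 alone, with a weight of 0 for vehicle 2.

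All 5 genes taken as markers of esophageal keratinocytes were kept. KRT5, the basal keratin, was at 5594, 8148, 3922 and 4500.4 RPKM. TP63, the basal lineage factor, was at 57.3, 55.3, 54.9 and 64.6 RPKM and differed little between libraries (SD of log2(RPKM + 1), called the log2 SD below, 0.11). The suprabasal keratin KRT4 was at 1073, 1020.1, 1459 and 416 RPKM. Its partner KRT13 was at 639.8, 618, 1376 and 272 RPKM, and involucrin (IVL) at 282, 565, 478 and 218 RPKM. KRT5 was highest in vehicle 2, KRT4 and KRT13 were highest in vehicle 3 and lowest in vehicle 4, and the log2 SD of KRT13 (0.95) was among the larger ones. In bulk samples such as these, fewer cells of a type and less RNA per cell cannot be told apart.

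TERT, the gene used to immortalize the line, was at 213, 219.9, 176 and 120.1 RPKM; reads of the added copy and of the native gene were counted together. Genes that respond to hypoxia signalling or to amino acid shortage were picked to check the vehicle label. No treated library or reference level was analysed, so their levels cannot decide it. CA9, a carbonic anhydrase induced by hypoxia-inducible factors, was at 0.925, 1.29, 0.129 and 0.586 RPKM, under 1 RPKM in 3 of the 4 libraries. ENO2, a hypoxia-induced enolase, was at 1.91, 0.795, 1.82 and 1.45 RPKM. Asparagine synthetase (ASNS) was at 189, 105, 194 and 194 RPKM, lowest in vehicle 2.

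Markers of other cell types were mostly at or near 0. Of 19 leukocyte markers 1 was kept, CD68 (52.4, 58.3, 73.4 and 42.7 RPKM), a lysosomal protein also made outside the blood lineage; 10 were at 0 in all 4 libraries, among them PTPRC, the common leukocyte antigen, and the summed level of the list was 42.8 to 74.3 RPKM. Of 16 fibroblast and endothelial markers 4 were kept. Vimentin (VIM), an intermediate filament protein, was at 98.2, 116, 52.9 and 36.3 RPKM, and the collagen chain COL1A1 at 14.1, 8.697, 11.6 and 12.5 RPKM. ACTA2 was at 2.95 RPKM and VWF at 1.703 RPKM on average. The fibrillar collagen chain COL1A2 was at most 0.00542 RPKM and COL3A1 at most 0.0105 RPKM, and DCN, LUM, CDH5 and CLDN5 were at 0 in all 4. The summed level of this list was 55.01 to 127 RPKM, lowest in vehicle 4 and highest in vehicle 2.

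Of 21 markers of columnar epithelium 4 were kept and 12 were at 0 in all 4 libraries, including CDX1, CDX2, TFF1, TFF3, HNF4A and CLDN18. The 4 kept were the simple-epithelial keratins KRT19 (1207, 1203, 1341 and 902 RPKM), KRT18 (93.8 ± 11.3 RPKM, SD, n = 4) and KRT8 (30.7 ± 7.54 RPKM), and AGR2 (3.62 ± 0.671 RPKM). KRT19 alone made up most of the list's summed level, which was 1011 to 1486 RPKM. Of 16 markers of ciliated, neural, muscle and pigment cells 4 were kept, TUBB3 (17.5 RPKM), MBP (8.28 RPKM), CALB2 (8.05 RPKM) and NEFL (2.25 RPKM); the list's summed level was 29.6 to 41.7 RPKM, and the ciliary factor FOXJ1 was at most 0.0111 RPKM.

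The top of the ranking consisted of keratins, S100 proteins, protease inhibitors and envelope precursors. KRT17 (chr17:39775692-39780882 in the hg19 positions of the deposited table) led with 9999.8, 14459, 10788 and 10471 RPKM. S100A9, a subunit of the calcium-binding defence protein calprotectin, followed with 10476, 11586, 12019 and 8286 RPKM (chr1:153330330-153333503), and KRT6A with 9282, 11819.6, 9007 and 9697 RPKM (chr12:52880958-52887181). These neighbours did not differ beyond their spread: KRT17 lay above S100A9 in 2 of the 4 libraries, and S100A9 above KRT6A in 2. KRT6A in turn lay above PI3, the next gene, in all 4. PI3, or elafin, an inhibitor of elastase, was at 6755, 5161, 6537 and 5993 RPKM.

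Ranks 5 to 8 were taken by KRT5 (5541 ± 1871 RPKM), KRT14 (5349 ± 1641 RPKM), KRT16 (5152 ± 816 RPKM) and HSPB1 (4445 ± 198 RPKM), a small heat shock protein (all SD, n = 4). KRT5 lay above KRT14 in 2 libraries and KRT14 above KRT16 in 2, while KRT16 lay above HSPB1 in all 4. The envelope precursors SPRR3, SPRR2E, SPRR2D, SPRR1B and SPRR2A, the cystatins CSTB and CSTA, S100A8, ferritin heavy chain (FTH1), ACTB, EEF1A1 and the secretory leukocyte peptidase inhibitor SLPI completed the first 20, with means of 2764 to 3886 RPKM. Among these 20, ACTB varied widely (3412, 5449.8, 3909 and 2662 RPKM), and CSTB little (3255, 3586, 3361 and 3549 RPKM).

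**Figure D1:**
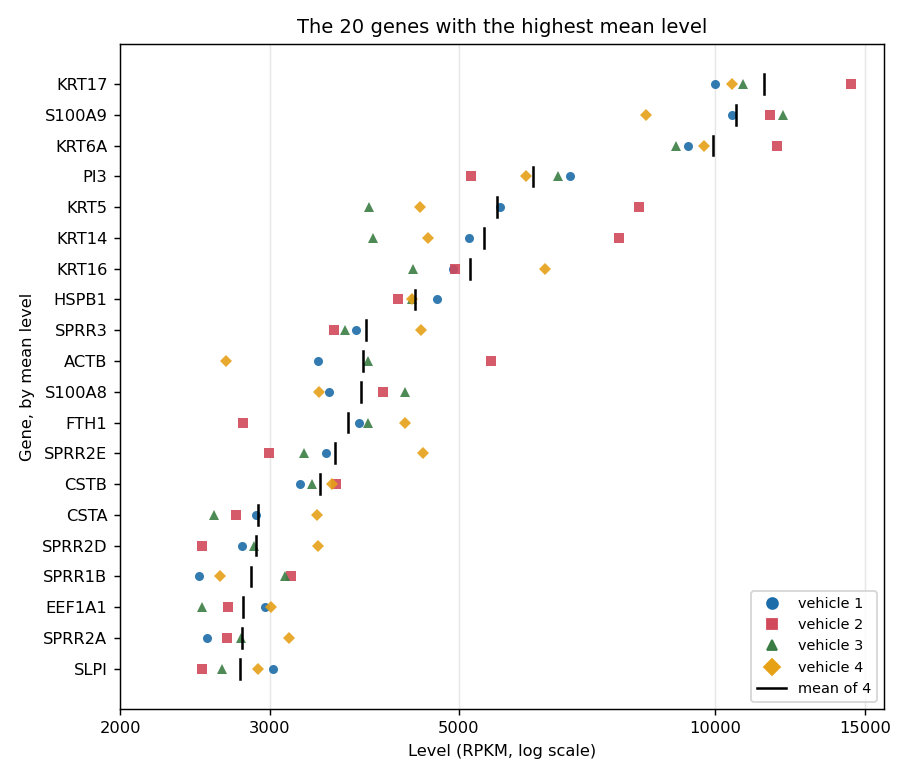
Level of the 20 genes with the highest mean, in RPKM on a log axis, with 1 point for each of the 4 vehicle libraries and a black bar at their mean. KRT17, S100A9 and KRT6A stand apart from the rest at 8286 RPKM or more in every library, while the libraries of many neighbouring genes overlap.

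Expression was concentrated in few genes. The 10 highest genes of each library held 15.1 ± 1.47% of its summed RPKM (SD, n = 4), the 100 highest 41.8 ± 1.53% and the 1000 highest 71.3 ± 1.37%. Between 152 and 203 genes held 50% of the sum, 152 of them in vehicle 2 and 196, 196 and 203 in the others. By reads, without division by gene length, the 10 highest held 10.6% and 555 genes were needed for 50%. S100 genes held 5.38 ± 0.603% of the summed RPKM, SPRR genes 4.09 ± 0.417% and 46 ribosomal protein genes 8.16 ± 0.315%.

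Keratins, the filament proteins that pair as type I with type II, held 9.59 ± 1.42% of the summed RPKM, with 8.97, 11.7, 8.82 and 8.85% in the 4 libraries, so that vehicle 2 lay above the rest. Of 54 keratin genes 23 were kept. KRT6A, KRT16 and KRT17 together held 5.95 ± 0.712%, the basal pair KRT5 and KRT14 2.44 ± 0.770%, the esophageal suprabasal pair KRT4 and KRT13 0.385 ± 0.197%, and the epidermal pair KRT1 and KRT10 0.0767 ± 0.0594%. This order of the 4 groups was the same in each library.

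Among type I keratins KRT17 held 46.9 ± 2.06% of the family, KRT14 21.7% and KRT16 21.5%. KRT10 was at 108, 105, 497 and 291 RPKM, and KRT15, a keratin of basal cells, at 76.02, 38.8, 96.2 and 58.4 RPKM. Both were highest in vehicle 3 and lowest in vehicle 2. Among type II keratins KRT6A held 54.3 ± 4.12% and KRT5 29.5%. KRT6B was at 1194 ± 338 RPKM and KRT6C at 148 ± 50.6 RPKM, so KRT6A exceeded its near-identical copies in all 4 libraries. KRT78 (308 ± 50.2 RPKM) and KRT80 (201 ± 53.4 RPKM) were, with KRT4 given above, the other type II keratins above 100 RPKM. KRT1 was at 45.1, 38.05, 211 and 71.1 RPKM. KRT6A, KRT6B and KRT6C share long stretches of sequence, as do KRT14, KRT16 and KRT17 with each other and with pseudogenes. The counting of reads with several matches is not known here, so the split within these groups is uncertain.

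**Figure D2:**
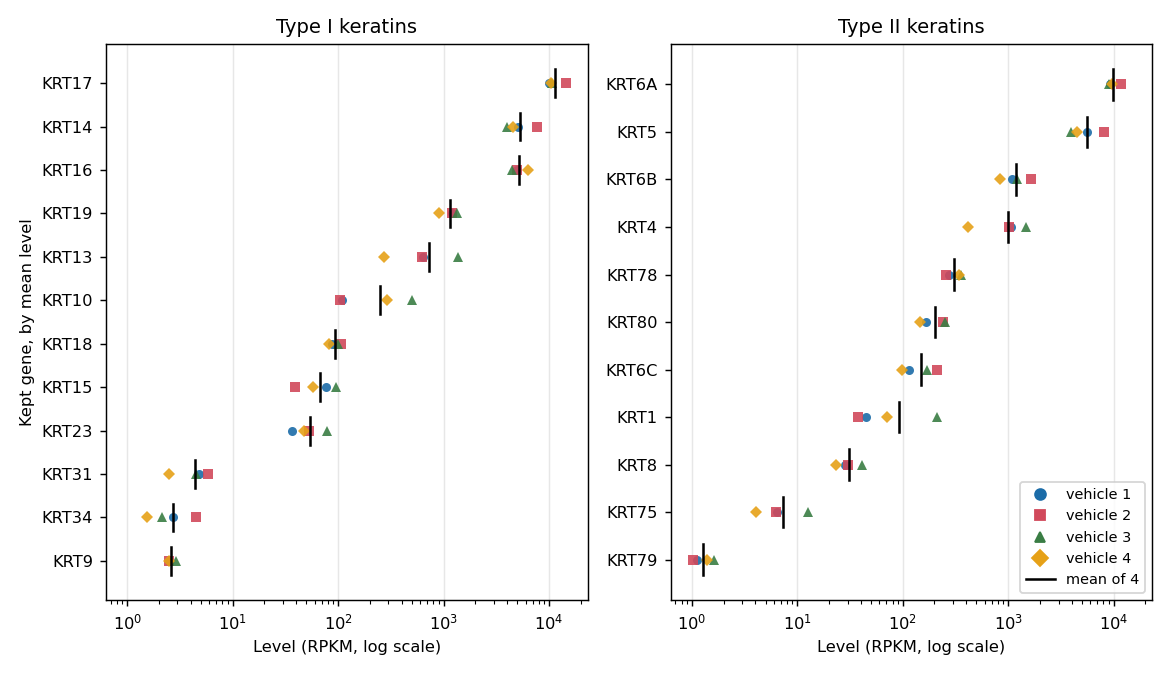
Level of the 23 kept keratins in RPKM on a log axis, type I on the left and type II on the right, with 1 point per vehicle library and a black bar at the mean of 4. KRT17 and KRT6A lead in every library, and KRT13, KRT10, KRT4 and KRT1 show the widest spread among the keratins above 50 RPKM.

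The genes of the envelope were led by the small proline-rich proteins, cross-linked at the cell border of squamous cells. Of 11 SPRR genes 10 were kept, and 6 had means above 1000 RPKM. SPRR3, typical of esophagus, was at 3791, 3565, 3678 and 4509 RPKM and held 21.3 ± 1.19% of the family; SPRR2E held 19.6% and lay below SPRR3 in 3 of the 4 libraries. SPRR1A was at 1123, 2389, 1636 and 1931 RPKM, lowest in vehicle 1. SPRR2 genes are near-identical copies, and their split is uncertain. CRNN, or cornulin, an esophageal envelope-associated protein, was at 782, 721, 751 and 1139 RPKM, and CNFN, or cornifelin, at 252, 775, 385 and 414 RPKM.

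Of 26 genes of the cornified layer 22 were kept, with a median of 281 RPKM. The proteins typical of skin were low: filaggrin (FLG) was at 1.61, 1.81, 1.73 and 5.06 RPKM and loricrin (LOR) at 2.21, 1.78, 1.83 and 4.06 RPKM, while HRNR reached at most 0.0239 RPKM and TCHH at most 0.0215 RPKM. Late cornified envelope genes were not all low, since LCE3D was at 206, 213, 257 and 261 RPKM and LCE3E at 154 ± 26.5 RPKM. SBSN (754 ± 175 RPKM), KRTDAP (503 ± 166 RPKM) and DMKN (406 ± 14.2 RPKM), secreted proteins of differentiating keratinocytes, had means of 406 to 754 RPKM.

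S100 proteins bind calcium, and 14 of 21 were kept. S100A9 held 43.95 ± 2.09% of the family and S100A8, the other subunit of calprotectin, was at 3834 ± 433 RPKM. S100A11 followed at 2449 ± 209 RPKM. S100A7, or psoriasin, was far lower and varied more, with 12.7, 32.3, 46.2 and 7.76 RPKM. Among cystatins, inhibitors of cysteine proteases, CSTB (53.2 ± 2.71%) and CSTA (44.7%) made up nearly the whole family.

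TGM1, the membrane-bound transglutaminase that cross-links envelope proteins, held 77.9 ± 6.396% of its family with 207, 421, 335 and 209 RPKM. TGM3 held 19.1% at 66.1 ± 11.5 RPKM. Among clade B serpins SERPINB2 led with 346, 591, 526 and 244 RPKM, a share of 37.1 ± 8.49%, before SERPINB5 (232 ± 16.6 RPKM); SERPINB3 was at 16.6, 45.8, 29.4 and 25.3 RPKM and its near-identical copy SERPINB4 at most 0.291 RPKM. No kallikrein dominated the 10 of 15 that were kept: KLK10, the leader, held 21.02 ± 3.09% and KLK12 19.3%, and without vehicle 2 KLK12 led. Among lipoxygenases of the epidermal barrier ALOX12B held 57.7 ± 10.8%.

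All 24 listed junction genes were kept, with means of 8.52 to 970 RPKM, a median of 126 RPKM and a median log2 SD of 0.18, beside 0.159 for all kept genes. Plakoglobin (JUP) was at 879, 941, 933 and 882 RPKM, and desmoplakin (DSP), which ties desmosomes to keratin, at 557, 588, 564 and 637 RPKM. DSG3 held 82.2 ± 3.34% of desmoglein expression, at 327, 457, 356 and 346 RPKM, and DSG1 was at 17.3, 18.7, 30.3 and 42.2 RPKM. DSC2 held 72.3 ± 5.05% of desmocollin expression and PKP1 67.6 ± 1.22% of plakophilin expression. GJB2, the gap junction protein connexin-26, was at 797, 1379.7, 825 and 877 RPKM and held 75.2 ± 1.25% of its family. CLDN4 (269.6 ± 66.1 RPKM) and CLDN7 (152 ± 26.4 RPKM) led the tight junction claudins, of which 6 of 21 were kept.

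At the basement membrane the laminin chain LAMB3 was at 536, 649.5, 435 and 342 RPKM and LAMA3, another chain, at 149, 189, 120.3 and 79.1 RPKM. Both were highest in vehicle 2 and lowest in vehicle 4. Among integrins, the receptors for this matrix, ITGA3 (205 ± 13.9 RPKM) and ITGA6 (179 ± 37.99 RPKM) led the alpha chains and ITGB1 (295 ± 48.5 RPKM) and ITGB4 (279 ± 30.6 RPKM) the beta chains. ITGB1 lay above ITGB4 in 2 of the 4 libraries, so these 2 levels did not differ beyond their spread. COL17A1, the hemidesmosome collagen, was at 283 ± 72.7 RPKM.

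Transcription factors of squamous lineage were well expressed, with 20 of 25 listed genes kept. PITX1, a homeobox factor, was the highest at 266, 354, 235 and 275 RPKM, before KLF5 (162, 155, 169 and 172 RPKM). PAX9, a foregut factor, was at 65.3, 56.4, 65.9 and 72.05 RPKM. SOX15 led its family with 79.8, 97.8, 77.5 and 66.9 RPKM (46.1 ± 7.79%), while SOX2 was at 5.25, 5.28, 2.82 and 7.78 RPKM and SOX9 at 46.7 ± 12.8 RPKM. GATA3 was at most 0.344 RPKM, and NKX2-1, a lung factor, was at 0 in all 4 libraries. GRHL3 led the grainyhead factors at 77.2 ± 20.5 RPKM.

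In the Notch pathway, which drives squamous differentiation, NOTCH3 (43.00 ± 8.52 RPKM) lay above NOTCH1 (31.2 ± 13.97 RPKM) in all 4 libraries, and the ligand JAG1 held 86.1 ± 3.69% of ligand expression. Among growth factor receptors ERBB2 (59.5 ± 5.02 RPKM) lay above EGFR (42.9 ± 10.1 RPKM) in 3 of 4 libraries, and FGFR3 held 76.96 ± 3.61% of its family at a mean of 10.98 RPKM. TGFA (78.4, 119, 104 and 67.6 RPKM) led the ligands of EGFR.

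Metabolic families were often carried by 1 member. ENO1 held 98.9 ± 0.473% of enolase expression, ALDOA 93.3 ± 1.43% of aldolase, LDHA 82.01 ± 1.04% of lactate dehydrogenase, HK1 82.7 ± 3.41% of hexokinase and SLC2A1 81.7 ± 2.89% of glucose transporter expression. AQP3, a channel for water and glycerol, held 99.7 ± 0.166% of aquaporin expression, with 187, 154, 344 and 188 RPKM. COX4I1 held over 99% of its family, at 204 ± 5.53 RPKM. Of the oxygen-sensing proteins, HIF1A (64.97 ± 6.604 RPKM) and EPAS1 (53.5 ± 3.01 RPKM) were near each other, with HIF1A above in all 4 libraries, and EGLN3 (5.46, 5.53, 13.2 and 11.1 RPKM) led the prolyl hydroxylases by RPKM, while EGLN1 led by reads.

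In the cytoskeleton ACTB held 67.9 ± 1.349% of actin expression and TPM4 82.9 ± 4.27% of tropomyosin. SFN, the epithelial 14-3-3 sigma, was at 1526, 1205, 1627 and 1642 RPKM and held 54.6 ± 3.99% of its family. ANXA1 (1746 ± 379 RPKM) lay above ANXA2 (1476 ± 249 RPKM) in all 4 libraries.

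Defence genes were strongly expressed at the top of their list and weakly below it. Of 29 measured genes of epithelial defence 20 were kept. The interleukin-1 receptor antagonist IL1RN was at 552, 577, 637 and 603 RPKM, 55.1 ± 4.93% of the IL-1 family; IL1B was at 275, 161, 189.7 and 145 RPKM and IL1A at 215, 114, 150.0 and 236 RPKM. Lipocalin-2 (LCN2), which binds siderophores, was at 2681, 2789, 2862 and 1960.1 RPKM. None of 10 Toll-like receptors was kept. TLR3 had the highest mean, with 1.850, 0.945, 2.09 and 1.496 RPKM, but TLR2, at 0.872, 2.899, 1.27 and 0.6903 RPKM, lay above it in vehicle 2 and had the higher mean when vehicle 1, 3 or 4 was left out. The chemokine CXCL8 was at 2.15, 0.253, 0.837 and 2.69 RPKM, and DEFB4A, an inducible defensin, was at most 0.0681 RPKM.

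Across the 52 families, with 444 measured members and 252 kept, the leader held more than 50% of the summed RPKM in 31 and more than 80% in 12. It lay above the runner-up in all 4 libraries in 42 families. Shares depend on gene length: by reads another member led in 11 families, for example ITGA6 among integrin alpha chains, ITGB4 among beta chains, ANXA2 among annexins, YWHAZ among 14-3-3 proteins and SOX9 among SOX factors. In 25 families the leader by RPKM held more than 50% by both measures.

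**Figure D3:**
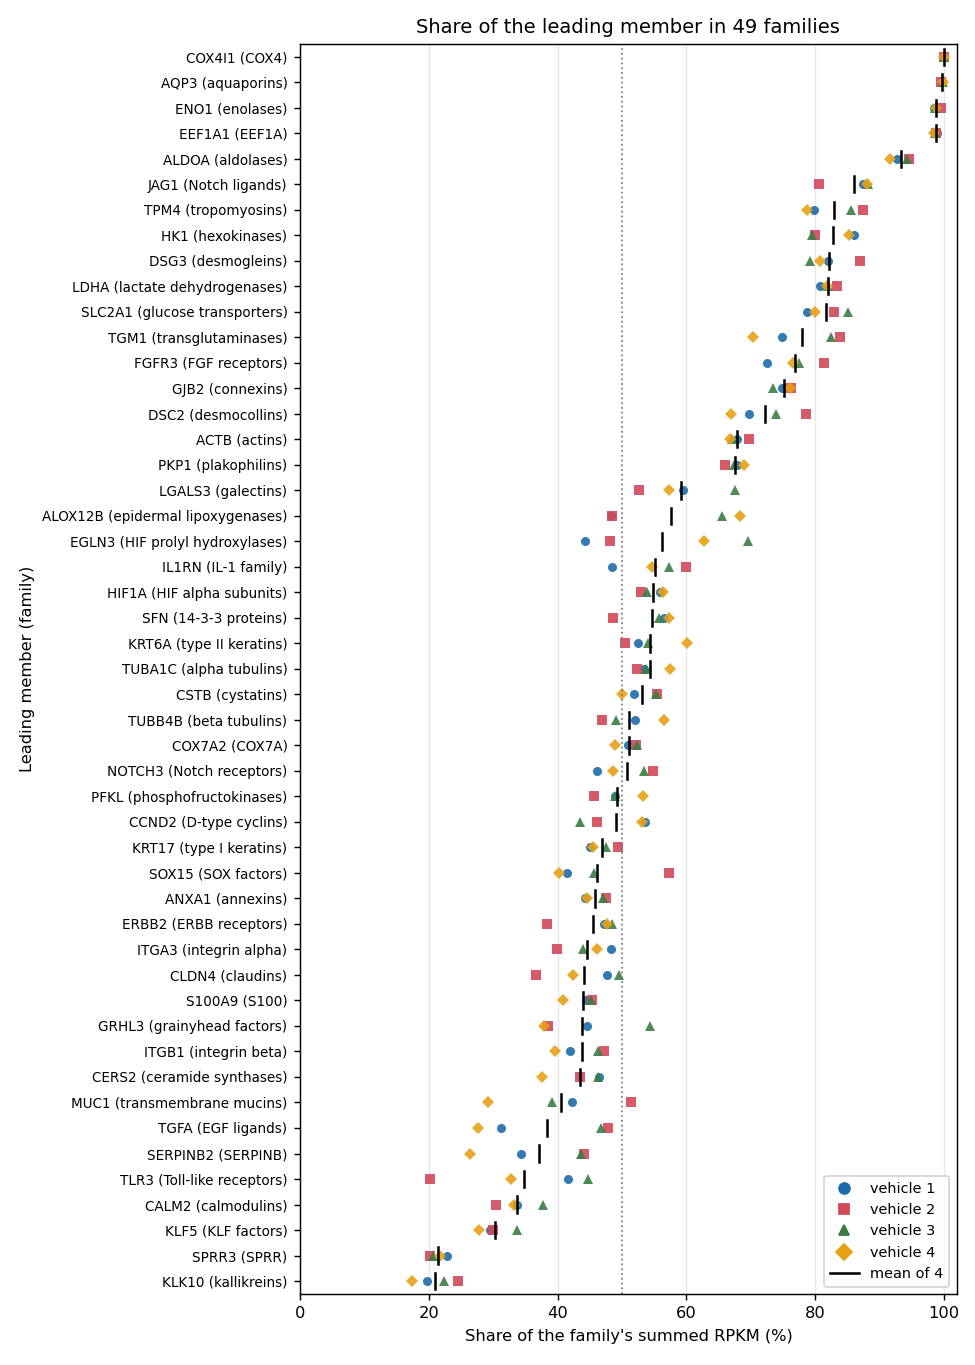
Share of the leading member in the summed RPKM of each of 49 of the 52 gene families, in percent, with 1 point per vehicle library and a black bar at the mean of 4; the dotted line marks 50%. Enolase, aldolase, aquaporin and elongation factor families are carried by 1 member, while KLK10 holds 21.0% and SPRR3 21.3% of theirs.

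Levels of genes with several listed positions may be understated. There are 597 such genes, 74 of them kept. Their listed length could be a sum over positions, and it was divisible by the number of positions in 448 of the 597. How reads that match several positions were counted is not known, so any understatement is uncertain. TUBB, a beta tubulin, was at 34.8 ± 6.70 RPKM as deposited. It would be at 278 ± 53.6 RPKM if the length of 1 position were used. By reads TUBB, not TUBB4B (361 ± 20.6 RPKM), led the beta tubulins.

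The spread between libraries was small for most genes. The median log2 SD of kept genes was 0.159, with quartiles of 0.104 and 0.241, against a median of 0.0375 from the counting of reads alone. A log2 SD of 0.5 or more, taken here to mark a variable gene, was found for 363 genes (3.47% of those kept), and 1 or more for 17. The highest library was 2-fold or more above the lowest in 930 kept genes (8.88%). Vehicle 2 was farthest from the median in 52.9% of the 363, beside 44.9% of all kept genes. For vehicle 3 this was 22.3% beside 22.5%, and for vehicle 4 20.9% beside 20.9%, so both lay at the background. For vehicle 1 it was 3.86% beside 11.6%. Without vehicle 2 the count was 236 genes, 165 of them among the 363, and without vehicle 1 it was 549.

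**Figure D4:**
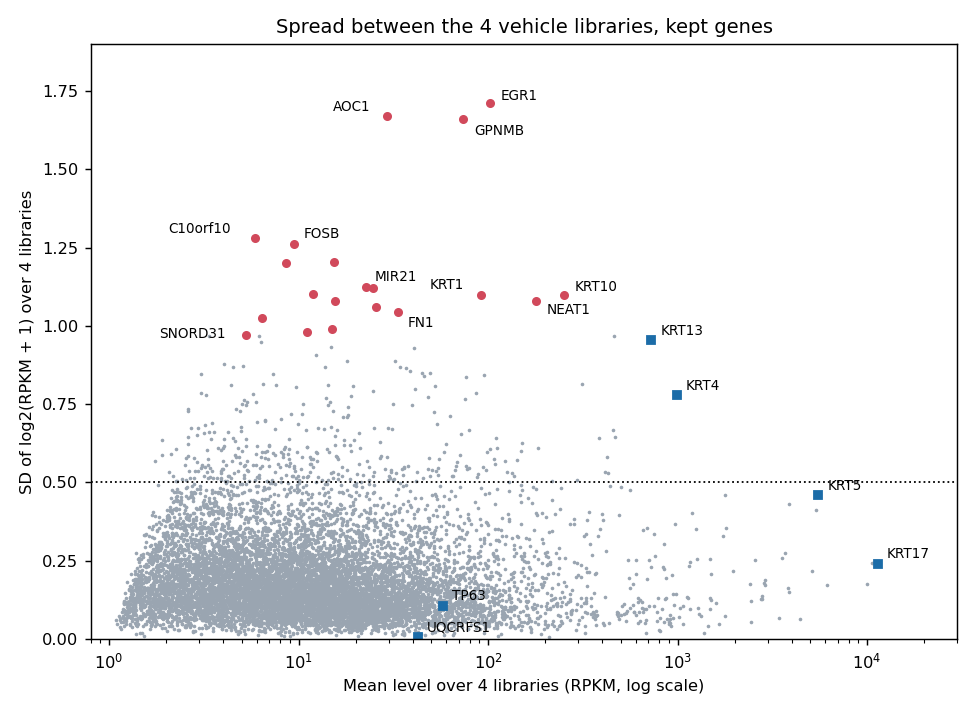
Log2 SD over the 4 vehicle libraries against mean level in RPKM (log axis) for the 10475 kept genes, 1 point per gene. Red points are the 20 genes with the largest log2 SD, blue squares are keratins, TP63 and the gene with the smallest log2 SD, and the dotted line marks 0.5; most genes lie below 0.25 at all levels.

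Of the 20 most variable genes 9 were highest in vehicle 3, 7 in vehicle 4, 3 in vehicle 2 and 1 in vehicle 1. Over all kept genes these shares were 22.4, 37.3, 19.3 and 21.0%. Lowest was vehicle 2 in 10 of the 20, vehicle 4 in 7, vehicle 3 in 3 and vehicle 1 in 0. Over all kept genes these shares were 49.2, 15.2, 23.9 and 11.8%. Some, such as HIST1H2BD and MIR21 below, were low in 1 library rather than high in 1. In vehicle 3 AOC1, a diamine oxidase, was at 79.7 RPKM against 21.2 RPKM, 11.98 RPKM and 4.05 RPKM in vehicles 1, 2 and 4. GPNMB, a membrane glycoprotein of lysosomes, was at 18.4, 16.1, 198 and 63.2 RPKM. C10orf10, also known as DEPP1, was at 3.59, 2.11, 16.5 and 1.38 RPKM, and without vehicle 3 its log2 SD went from 1.28 to 0.48. KRT10, KRT1, S100A7, NEAT1, ANKRD37 and SAA1 also peaked there. NEAT1, a nuclear long noncoding RNA, was at 172, 51.4, 299 and 195 RPKM, and SAA1, an acute-phase protein, at 5.15, 4.93, 13.8 and 1.604 RPKM. In each of these genes the other 3 libraries lay below vehicle 3.

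Vehicle 2 held the highest values of CSF3, FN1 and EMP3. CSF3, the granulocyte colony-stimulating factor, was at 11.9, 15.7, 5.23 and 1.61 RPKM. Fibronectin (FN1) was at 42.4, 62.7, 15.1 and 13.9 RPKM, so that vehicles 1 and 2 lay above vehicles 3 and 4, as they did for vimentin. EMP3, a membrane protein, was at 9.29, 23.4, 7.76 and 3.68 RPKM. HIST1H2BD, a histone gene, was at 20.1, 3.61, 19.98 and 18.5 RPKM, low in vehicle 2 alone; without that library its log2 SD went from 1.08 to 0.064.

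Immediate early genes, transcription factors and regulators that cells switch on within minutes of a stimulus, were spread widely. Variable were 9 of 20 kept members (45.0%, beside 3.47% of all kept genes). Their median log2 SD was 0.42, beside 0.159 for all kept genes. EGR1 had the largest log2 SD of all kept genes, 1.71, with 121, 41.1, 14.8 and 233 RPKM. FOSB was at 7.198, 3.601, 2.57 and 24.6 RPKM, FOS at 44.9, 26.00, 20.6 and 67.3 RPKM and NR4A1 at 16.1, 4.33, 13.7 and 26.1 RPKM. MYC was at 113, 75.1, 38.96 and 154 RPKM, whereas JUND was nearly level at 62.8, 59.6, 59.8 and 61.8 RPKM. Vehicle 4 was the highest library in 16 of the 20 (80%, beside 37.3% of all kept genes), and in 13 after median-ratio scaling (65%, beside 24.0%). Vehicle 3 was lowest in 9 (45%, beside 23.9%), and in 10 after scaling (50%, beside 22.7%). Vehicle 2 was lowest in 11 (55%), near its 49.2% of all kept genes, and in 7 after scaling (35%, beside 32.3%).

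The stretch upstream of the most variable gene is shown because EGR1 is a textbook target of serum response factor, which binds the CArG box. In RefSeq's GRCh38.p14 the 250 bases before the start of EGR1, on the plus strand at chr5:138465229-138465478, hold 2 CArG boxes, given in capitals.
EGR1 upstream: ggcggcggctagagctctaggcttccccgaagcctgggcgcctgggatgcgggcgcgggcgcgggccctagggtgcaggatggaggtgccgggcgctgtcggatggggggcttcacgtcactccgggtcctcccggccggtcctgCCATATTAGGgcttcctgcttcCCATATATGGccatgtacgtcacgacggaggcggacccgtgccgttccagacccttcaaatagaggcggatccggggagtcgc
Both strands were searched, and overlapping matches were allowed. Of 15 immediate early genes with a promoter listed there, 1 held a CArG box in these 250 bases (6.67%), EGR1 itself. Of all 35116 promoters 407 did (1.16%). For the 15 genes only this window at the first listed start was searched, for exact matches, so boxes elsewhere or of looser form are missed. The cyclic AMP response element TGACGTCA was found in 2 of the 15, JUND and DUSP1, and in 578 of all (1.65%). A match is a run of letters and not a measured site.

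Of 25 cell cycle genes 10 were kept, a share near the 41.3% of all listed genes. These 10 had a median of 6.22 RPKM, beside 10.1 RPKM for all kept genes. PCNA, the sliding clamp of DNA replication, was the highest at 31.2, 26.5, 24.97 and 28.5 RPKM. MKI67, the proliferation antigen, was at 1.25, 1.72, 0.116 and 0.0752 RPKM, TOP2A at 2.51, 2.53, 0.196 and 0.235 RPKM and CDC20, an activator of mitotic exit, at 3.98, 9.69, 1.81 and 0.736 RPKM. Vehicles 1 and 2 both lay above vehicles 3 and 4 in 8 of the 10 kept members (80%), against 11.1% of all kept genes. Over all 25 members this held for 22 (88%), against 12.6% of the 18473 listed genes above 0 in a library. Each of the 15 members that were not kept was under 1 RPKM in vehicle 3 or 4. MCM genes, which encode subunits of the replication helicase, were kept and followed the same order of pairs. Examples are MCM2 with 2.77, 4.96, 1.350 and 1.34 RPKM and MCM5 with 5.82, 11.3, 4.98 and 3.61 RPKM. The median log2 SD of the kept members was 0.55, and without vehicle 2 it was 0.31.

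**Figure D5:**
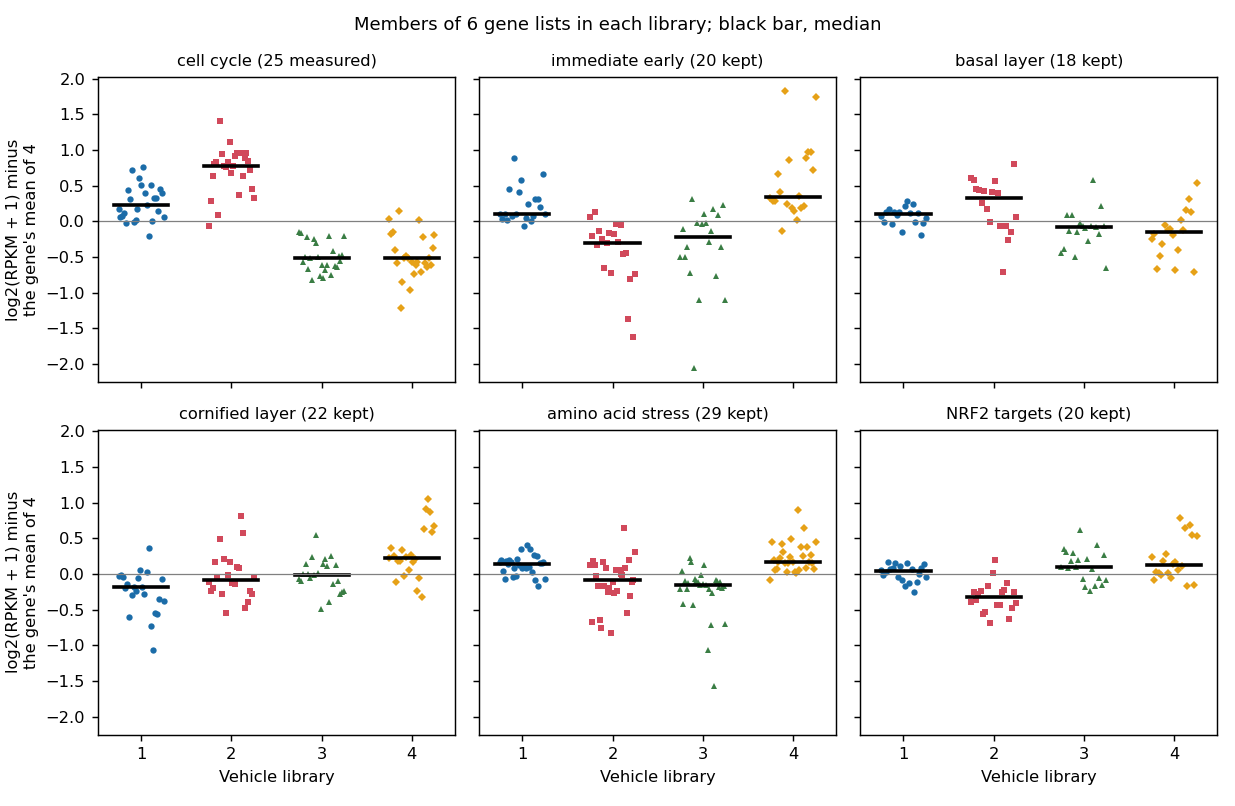
Deviation of each gene's log2(RPKM + 1) from its mean over the 4 vehicle libraries, by library, for members of 6 gene lists; each point is a gene and black bars are medians. The cell cycle panel and its bars cover all 25 measured members, and the other panels cover kept members only. Medians given here are over kept members in every list. The 10 kept cell cycle genes lie high in vehicle 2 (median 0.77) and low in vehicles 3 (-0.40) and 4 (-0.44). Immediate early genes lie high in vehicle 4 (0.34), and NRF2 targets lie low in vehicle 2 (-0.32).

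The lists of layer genes did not share 1 order of libraries. Of 18 kept basal genes 11 were highest in vehicle 2 (61.1%, beside 19.3% of all kept genes), and 12 after scaling (66.7%, beside 34.5%). Lowest in vehicle 4 were 8 (44.4%, beside 15.2%), and 10 after scaling (55.6%, beside 24.7%). Those highest in vehicle 2 include KRT5, KRT14, LAMB3 and LAMA3. Others are CDH3, the adhesion protein P-cadherin (149.5, 163, 101 and 92.7 RPKM), and PDPN, the surface protein podoplanin (15.7, 28.8, 15.3 and 9.48 RPKM). Of 22 kept cornified genes 14 were highest in vehicle 4 (63.6%, beside 37.3% of all kept genes), and 10 after scaling (45.5%, beside 24.0%). Lowest in vehicle 1 were 14 (63.6%, beside 11.8%), and 15 after scaling (68.2%, beside 20.2%). Lowest in vehicle 2 were 5 (22.7%, beside 49.2%), and 3 after scaling (13.6%, beside 32.3%). RPTN, a repetin of the envelope, was at 10.05, 33.6, 20.02 and 34.7 RPKM, and FLG2 at 1.197, 1.47, 2.02 and 5.72 RPKM. Of 28 kept suprabasal genes 8 were lowest in vehicle 1, 6 in vehicle 2, 6 in vehicle 3 and 8 in vehicle 4, and after scaling 13, 1, 5 and 9. Over all kept genes vehicles 1, 2, 3 and 4 were lowest in 11.8, 49.2, 23.9 and 15.2%, and after scaling in 20.2, 32.3, 22.7 and 24.7%. Variable were 9 of the 28 suprabasal genes (32.1%, beside 3.47% of all kept genes).

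Genes of the amino acid response, induced by the factor ATF4, were all kept, 29 of 29, at a median of 67.9 RPKM. Vehicle 4 was highest in 18 of them (62.1%, beside 37.3% of all kept genes), and in 12 after scaling (41.4%, beside 24.0%). Vehicle 3 was lowest in 17 (58.6%, beside 23.9%), and in 16 after scaling (55.2%, beside 22.7%). SLC7A5, an amino acid transporter, was at 649, 628, 500.0 and 546 RPKM, and the kinase-like regulator TRIB3 at 241, 264, 173 and 268 RPKM. CHAC1, a glutathione-degrading enzyme, was at 52.6, 33.4, 18.4 and 74.6 RPKM, and the stress sensor SESN2 at 26.5, 34.7, 6.68 and 34.7 RPKM; both were lowest in vehicle 3. The unfolded protein response had a median log2 SD of 0.11, beside 0.159 for all kept genes. Variable were 0 of its 19 genes, beside 3.47% of all kept genes.

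NRF2 targets, the genes of antioxidant defence, had 20 of 21 members kept. Vehicle 2 was lowest in 16 of them (80%, beside 49.2% of all kept genes), and in 13 after scaling (65%, beside 32.3%). FTH1 was at 3813, 2788, 3913 and 4324 RPKM, NQO1, a quinone reductase, at 50.7, 31.9, 58.8 and 54.1 RPKM and TXNRD1, thioredoxin reductase, at 29.5, 16.4, 42.3 and 26.1 RPKM. Of 22 kept targets of hypoxia-inducible factors 10 were lowest in vehicle 2 (45.5%, near the 49.2% of all kept genes), and 7 after scaling (31.8%, beside 32.3%). Highest in vehicle 3 were 10 (45.5%, beside 22.4%), and 10 after scaling (45.5%, beside 26.9%). NDRG1, the highest of them, was at 516, 548, 765 and 574 RPKM; ADM, adrenomedullin, at 37.96, 40.97, 100.3 and 35.96 RPKM; and ANGPTL4, a lipase inhibitor, at 26.00, 31.2, 73.4 and 16.8 RPKM. HILPDA, a lipid droplet protein, was at 9.64, 7.59, 33.5 and 8.59 RPKM and ANKRD37 at 8.67, 3.82, 33.2 and 16.2 RPKM. BNIP3 (21.8, 27.9, 18.8 and 22.1 RPKM) and NDUFA4L2 (21.7, 19.8, 7.25 and 23.9 RPKM) were lowest in that library, so the members did not share 1 order, and their median log2 SD of 0.33 was 0.20 without vehicle 3.

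Interferon-response genes were low, with a median of 4.18 RPKM over 16 kept of 24; IFITM3 was at 90.1, 76.6, 51.4 and 40.3 RPKM and ISG15 at 14.9, 9.54, 22.03 and 10.7 RPKM. Of the 16, 9 were highest in vehicle 3 (56.25%, beside 22.4% of all kept genes), and 9 after scaling (beside 26.9%). Lowest in vehicle 2 were 10 (62.5%, beside 49.2%), and 7 after scaling (43.75%, beside 32.3%). Metallothioneins, which bind zinc and copper, were led by MT2A (1356, 1328, 1446 and 850.3 RPKM) and MT1X (454, 152, 535 and 712 RPKM), and 5 of 12 were kept. MT2A was lowest in vehicle 4, where MT1X was highest. All 23 measured genes of sterol synthesis were kept, with 0 variable, beside 3.47% of all kept genes. Their median log2 SD was 0.21, above the 0.159 of all kept genes. MSMO1, a sterol demethylating enzyme, was at 104 ± 14.8 RPKM.

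Ribosomal and mitochondrial genes were the steadiest lists. The median log2 SD was 0.08 over 46 ribosomal protein genes, led by RPLP1 (2456 ± 92.96 RPKM) and RPS2 (1969 ± 277 RPKM). It was 0.10 over 39 genes of oxidative phosphorylation, led by COX6A1 (239 ± 21.2 RPKM). Variable were 0 members of either list, beside 3.47% of all kept genes. Their order between libraries followed the scaling. Ribosomal protein genes were highest in vehicle 1 in 29 of 46 as deposited (63.0%, beside 21.0% of all kept genes). After median-ratio scaling this held for 1 (2.17%, beside 14.6%), and vehicle 2 was highest in 42 (91.3%, beside 34.5%). Lowest in vehicle 3 were 35 (76.1%, beside 23.9%), and 27 after scaling (58.7%, beside 22.7%). Of the oxidative phosphorylation genes 27 of 39 were lowest in vehicle 2 as deposited (69.2%, beside 49.2%), and 12 after scaling (30.8%, beside 32.3%). Glycolysis genes, 16 of 17 kept and 0 variable, were highest in vehicle 2 in 8 of 16 (50%, beside 19.3%). After scaling this held for 13 (81.25%, beside 34.5%). GAPDH was at 907, 949, 771 and 845 RPKM, PKM at 498, 497, 441 and 479 RPKM and LDHA at 307, 409.8, 299.7 and 293 RPKM.

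Genes commonly used as references were not equally steady. RPLP0 (1459.6, 1417, 1398 and 1487 RPKM) and POLR2A (47.3, 44.8, 45.2 and 47.7 RPKM) had log2 SDs of 0.04 and 0.04. ACTB had 0.43 and TFRC, the transferrin receptor, 0.62, with 5.81, 2.86, 5.37 and 9.98 RPKM. The smallest log2 SD at a mean of 10 RPKM or more belonged to UQCRFS1, a subunit of respiratory complex III, at 42.4, 42.6, 42.8 and 42.97 RPKM. EDF1, a transcriptional coactivator, at 209, 207, 209.7 and 208 RPKM, the deubiquitinase USP14 at 20.4, 20.6, 20.7 and 20.5 RPKM, the epithelial kinase PTK6 at 113, 112, 114 and 113 RPKM and the hexokinase HK1 at 46.6, 46.7, 47.2 and 46.1 RPKM were also among the 10 steadiest, with TOMM5, PLEKHM2, NOP14, C14orf166 and PDIA6. The smallest log2 SDs lay below those given by counting reads alone, as for UQCRFS1 (0.01 against 0.03).

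Short RNA genes were spread more than others. RefSeq gave a class for 10384 of the 10475 kept genes, of which 10051 were protein coding with 3.08% variable, 48 were small nucleolar RNAs with 20 variable (41.7%) and 39 were microRNA genes with 14 variable (35.9%). Of 89 kept genes with a listed length under 200 nt, 53 were lowest in vehicle 2 (59.6%, beside 49.2% of all kept genes), and 49 after scaling (55.1%, beside 32.3%). Among the 20 most variable genes were MIR21, at 28.9, 5.19, 26.1 and 30.2 RPKM from a mean of 57.5 reads, and SNORD31, at 6.29, 1.27, 3.68 and 9.93 RPKM from 12.5 reads, both lowest in vehicle 2. Without vehicle 2 the log2 SD of MIR21 went from 1.125 to 0.104. The reads were counted over the hairpin locus of MIR21 and are not a measure of the mature microRNA. RefSeq's hairpin (GRCh38.p14, chr17:59841266-59841337, plus strand) is given with the listed mature arm in capitals, and the mature miR-21-5p with its seed, bases 2 to 8, in capitals, to show what the counted stretch holds.
MIR21 hairpin: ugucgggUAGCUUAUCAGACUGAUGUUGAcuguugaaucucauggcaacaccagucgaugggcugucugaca
miR-21-5p: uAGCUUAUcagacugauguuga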

How the data were processed

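RNA sequencing of 4 vehicle libraries was read from a table of RPKM values that the authors deposited, although its name speaks of raw counts. The tools named, with no role, are TopHat2 2.0.13 and Bowtie2 2.2.3.0 (aligners), HTSeq 0.6.1 (a read counter), SAMtools 1.3.1, Picard 1.129, bcl2fastq and FastQC 0.11.5, per the submitters' processing notes, which name the human builds hg19 (GRCh37) and hg38 (GRCh38). The positions carry hg19 haplotype names. Strand and multiple-match settings are not given in the sources used here. A vehicle mean of the authors' deposited comparison table, a normalized signal per the file headers, served only to find which libraries entered it.

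Reads were recovered as RPKM times listed length over the RPM of a single read, and 100% of the values above 0 came out whole within 0.01 reads. These reads gave the depth and the counting SD. Means and SDs over 4 libraries, log2(RPKM + 1) with a pseudocount of 1, and shares of summed RPKM were computed with Python 3.11.15, NumPy 2.4.6 and pandas 2.3.3, and tested on simulated data. There is 1 group, so no test between groups was run, and Dixon's ratio served only to flag values. With 4 libraries an exact two-sided sign test could not give a p below 0.125. A count of list members in 1 library is read against the same share of all kept genes.

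Named are the 20 genes with the highest mean, the 20 with the largest log2 SD, the 10 with the smallest at a mean of 10 RPKM or more, the 2 highest members of each of 52 families, the 4 highest of each of 24 gene lists, kept markers of other cell types, the 5 keratinocyte markers and 4 check genes. Some genes that this rule names are not reported here. Other members of these lists and families were chosen after their values were seen. The members, lists and families were chosen with earlier results of these data known. A spreadsheet had changed 28 gene names into dates, 14 of them among the kept genes, and these are not named. Alternatives were other RPKM limits, pseudocounts and scalings, reads in place of RPKM, and leaving out each library; 2 of them, a length per listed position and a length limit of 200 nt, were chosen after seeing the data.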

Additional observations from a re-analysis of the deposited data

Results flagged for a closer look

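With 4 libraries, the gap from the highest or lowest value to its nearest neighbour was divided by the whole range. Of 233 printed values 21 passed Dixon's 95% critical value (9.01%), where chance gives about 1 in 20. Some values were printed for their wide spread or after being seen, and some overlap, so this share cannot be set against chance. Over all kept genes 623 passed (5.95%). The library that stood apart was vehicle 2 in 13 of the 21, vehicle 3 in 5, vehicle 4 in 3 and vehicle 1 in 0. The causes were not tested.

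Vehicle 2 lay above the rest in the share of summed RPKM held by all keratins (ratio 0.949) and by the 10 (0.904) and 100 (0.917) highest genes, and in GJB2 (0.863), ITGA6 (0.834), LDHA (0.881) and COL3A1 (1.000, at near 0 throughout). It lay below the rest in the number of genes that hold 50% of the sum (0.863), in ASNS (0.939), HIST1H2BD (0.902) and MIR21 (0.837), and in the shares of ERBB2 among ERBB receptors (0.875) and JAG1 among Notch ligands (0.888).

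Vehicle 3 stood above the other libraries in ADM (0.922), HILPDA (0.921), C10orf10 (0.854), the factor GRHL3 (0.869) and, over a narrow range, PTK6 (0.898). Vehicle 4 stood above them in CRNN (0.853), FLG (0.943) and FOXJ1 (1.000, at near 0 throughout).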

How the results depend on the processing

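No paired analysis was possible because 1 group is described, and no test between groups was run. The number of kept genes stayed between 9198 and 11489 under the other limits, scalings and left-out libraries that were tried. With recovered reads in place of RPKM the 10, 100 and 1000 highest genes held 10.6%, 27.6% and 59.7% of the sum, and 555 genes held 50% of it; here the change is the division by gene length. The number of genes with a log2 SD of 0.5 or more was 646 with a pseudocount of 0.1 and 618 with no filter on low values, as low genes then weigh more or are added; it was 365 with median-ratio scaling, 359 with equal sums and 329 without genes under 200 nt. Leaving out each replicate in turn gave 236 (without vehicle 2) to 549 (without vehicle 1). Of the 20 most variable genes 9 to 19 stayed among the first 20 under these settings. The depth of 32707991 to 39931833 reads leaves a small counting SD at most levels but not for short genes such as SNORD31, with 12.5 reads on average.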

Other observations

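Some families outside the squamous programme had a clear leader as well. Galectin-3 (LGALS3), a sugar-binding protein, held 59.2 ± 6.203% of galectin RPKM (SD, n = 4), before LGALS7B with 23.4%, which is a near-identical copy of LGALS7 and so uncertain. Among membrane mucins, the glycoproteins of the cell surface, MUC1 held 40.5 ± 9.14% by RPKM, while MUC21 led by reads. Cyclin CCND2 held 49.04% of D-type cyclin RPKM and CCND1 41.45%, and CCND2 lay above CCND1 in 3 of 4 libraries. CERS2 led the ceramide synthases, enzymes of barrier lipid synthesis, with 43.4 ± 4.15%, and CERS3 followed with 31.6%. TUBA1C held 54.3 ± 2.24% of alpha tubulin RPKM in genes that share most of their coding sequence, and TUBA4A 24.1%.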
